A study of Mus musculus with 2 samples.

Results

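Krueppel-like factors are zinc-finger proteins that bind GC-rich and CACCC-containing DNA and switch transcription on or off through the cofactors they recruit. In surface epithelia, Klf4 is known for driving barrier and differentiation genes, and it is needed for a normal corneal epithelium. Klf5 is known from dividing basal epithelial cells, and Klf2, Klf6 and Klf10 are known as genes whose RNA can rise rapidly after a stimulus. Members of the family described here were Klf2, Klf3, Klf4, Klf5, Klf6, Klf9, Klf10 and Klf13, chosen by name as 8 of the 17 Klf genes among 31053 genes in the count table. Each of the 8 had UMIs (unique molecular identifiers, so that PCR copies of a captured RNA count once) in both libraries.

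The cells were corneal epithelial cells of CycB1-GFP mice, a genotype with a green fluorescent reporter of cyclin B1, collected as 1 group of 2 replicates. After Dispase and trypsin treatment only live GFP-positive cells were sorted, so cells without the reporter were not measured, and the labels name neither the animals behind each library nor their age. The 2 libraries are told apart by a barcode suffix that the labels do not link to a replicate, and are called library 1 and library 2. Of 3458 and 3294 barcodes with 19001107 and 18030874 UMIs, 3187 and 3001 cells had at least 500 genes and under 20% mitochondrial UMIs and were kept. Their median depth was 5571 and 5886 UMIs, and 5 barcode sequences occurred in both libraries.

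Cells were placed by the share of Krt12 among their Krt12 and Krt15 UMIs, where both together reached at least 5. Krt12 is the corneal keratin and Krt15 marks limbal and other basal epithelium. A share above 0.8, called corneal here, was found in 2304 cells of library 1 and 1821 of library 2, a share below 0.4 in 663 and 959, and a share of 0.4 to 0.8 in 161 and 164. Levels are given as CPM, the UMIs of a gene or list per 1e6 UMIs of the same cells. The 5 corneal markers (Krt12, Krt5, Pax6, Aldh3a1 and Tkt) summed to 33847 and 44407 CPM in the corneal cells and to 7104 and 6635 CPM below 0.4. Conjunctival markers (Krt4, Krt13, Krt19, Krt8 and Muc4) summed to 1045 and 1938 CPM below 0.4 and to 125 and 149 CPM in the corneal cells. Keratocyte markers reached at most 3 UMIs in any class and library, endothelial markers at most 4, the Ptprc marker of immune cells at most 5, and the melanocyte list at most 87, with Tyrp1 at 0. In the low class of library 2, 191 of 194 immune-list UMIs were Cd74. No cell type that lacks the Klf genes was present in numbers to measure free RNA, and the background from it is therefore unknown.

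All 8 members are set against the early response gene Fos below, and AP-1, the factor that Fos helps form, has a known DNA element. Promoter sequences are therefore shown for Klf2, Klf4, Klf6 and Klf9, the 4 members with the largest log2 fold changes by Fos class, chosen after these values were seen. Each is the 250 bases before the RefSeq start on GRCm38.p6, written 5′ to 3′ on the gene's strand, and capitals mark every match to a searched motif. The GENCODE gene models place the starts of Klf2 and Klf6 inside these windows, at 72319033 and 5861482. The Klf2 promoter is chr8:72318812-72319061 on the plus strand, the Klf4 promoter chr4:55532476-55532725 on the minus strand, the Klf6 promoter chr13:5861239-5861488 on the plus strand and the Klf9 promoter chr19:23140976-23141225 on the plus strand.
Klf2: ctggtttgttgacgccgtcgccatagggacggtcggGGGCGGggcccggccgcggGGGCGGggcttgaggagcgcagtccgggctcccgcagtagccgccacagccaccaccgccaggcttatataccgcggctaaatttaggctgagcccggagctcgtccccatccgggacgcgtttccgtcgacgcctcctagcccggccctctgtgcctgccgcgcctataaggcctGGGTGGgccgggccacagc
Klf4: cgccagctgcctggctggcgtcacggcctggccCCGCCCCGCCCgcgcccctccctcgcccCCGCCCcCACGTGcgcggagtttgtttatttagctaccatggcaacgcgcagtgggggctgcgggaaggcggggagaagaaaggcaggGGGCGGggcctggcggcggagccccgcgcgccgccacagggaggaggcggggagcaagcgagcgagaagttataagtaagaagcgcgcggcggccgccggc
Klf6: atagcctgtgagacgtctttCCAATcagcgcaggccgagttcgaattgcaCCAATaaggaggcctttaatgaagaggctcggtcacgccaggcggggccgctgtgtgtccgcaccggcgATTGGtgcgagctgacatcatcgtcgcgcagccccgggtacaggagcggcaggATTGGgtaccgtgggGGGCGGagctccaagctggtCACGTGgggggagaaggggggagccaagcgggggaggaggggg
Klf9: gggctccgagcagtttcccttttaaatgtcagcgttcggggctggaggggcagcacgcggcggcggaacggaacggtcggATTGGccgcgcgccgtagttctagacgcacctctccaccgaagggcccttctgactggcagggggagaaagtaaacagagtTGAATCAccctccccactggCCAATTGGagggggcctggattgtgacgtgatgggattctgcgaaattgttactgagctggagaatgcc

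The motifs were the AP-1 element TGANTCA, the cAMP response element TGACGTCA, the CArG box, the GC box GGGCGG, the CACCC box CCACCC, the TATA box TATAAA, the CCAAT box, the E-box CACGTG and the EGR element GCGTGGGCG, each read on both strands. Of 32851 RefSeq promoters of this length, 6.75% held TGANTCA, 32.7% the GC box and 28.1% the CACCC box. The CCAAT box was held by 33.9% and the E-box by 6.02%. The TATA box was held by 12.4%, the cAMP response element by 1.55%, the CArG box by 1.47% and the EGR element by 0.536%. TGANTCA was matched in Klf9 alone, 89 bases before the start, among the 6 members in the promoter table (Klf2, Klf3, Klf4, Klf6, Klf9 and Klf13). The bases there were TGAATCA, so none of these 6 windows held the consensus form. E-box matches lay 182 bases before the start of Klf4 and 43 bases before that of Klf6. GC boxes numbered 6 in Klf3, 4 in Klf4, 3 in Klf13, 2 in Klf2 and 1 in Klf6, with none in Klf9. The Klf3 window, chr5:64803271-64803520, runs past the GENCODE start at 64803388, so some of its matches lie inside that gene model. In Klf4 a pair of GC boxes shares a base, and in Klf9 a pair of CCAAT boxes on opposite strands overlaps. GC content ran from 59.6% in Klf9 to 78.4% in Klf3, against a median of 52.4% over all promoters. None of the 6 windows held the letters of a cAMP response element, a CArG box, a TATA box or an EGR element, which says nothing of sequence outside them.

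Along the Krt12 share, Klf4 and Klf3 RNA was higher on the corneal side, Klf5 and Klf13 RNA was higher on the low side, and Klf2, Klf6, Klf9 and Klf10 did not pass the test. The UMIs of each class were added up within a library, and these sums were tested over all genes by edgeR's quasi-likelihood method with a library block. With cells below 0.4 set against corneal cells, 4 of the 8 members passed an adjusted p of 0.05, 2 in each direction. Over all genes 32.5% of 11138 passed, 16.9% higher and 15.6% lower in the low class, so a count of 4 members is no result about the family. Nothing says the 2 libraries came from separate animals. With library as a block, the p-values then measure only how far the class differences varied between these 2 libraries.

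Klf4, an activator of epithelial differentiation genes (ENSMUSG00000003032, chromosome 4, 55527143 to 55532466, minus strand), had 331 CPM below 0.4 in library 1 and 145 in library 2. At intermediate shares it had 543 and 376 CPM, and in corneal cells 1005 and 792 CPM. Within each library the 3 classes followed the same order and their exact 95% Poisson intervals, which cover counting error only, did not overlap. The low class of library 1 lay below the intermediate class of library 2 by less than those intervals. The log2 fold change of low against corneal cells was -2.03 ± 0.27 (SE, 2 libraries), with an adjusted p of 0.0288 in edgeR, and it was -1.64 in library 1 alone and -2.45 in library 2 alone. Without the library block the adjusted p was 0.0595, and over all 10 alternatives it ran from 4.66e-25 to 0.0866.

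Klf5, known as an activator in proliferating epithelium (ENSMUSG00000005148, chromosome 14, 99298691 to 99315036, plus strand), showed the opposite order. It had 405 and 348 CPM below 0.4, 306 and 267 CPM at intermediate shares and 178 and 164 CPM in corneal cells. Again the 3 classes were ordered alike in both libraries, with intervals apart within each. Its log2 fold change of 1.11 ± 0.083 (SE, 2 libraries; edgeR adjusted p = 6.16e-12) was nearly the same in library 1 (1.15) and library 2 (1.08). Klf5 passed under each of the 10 alternatives, with adjusted p-values up to 0.00226.

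Klf3, a repressor that works through CtBP corepressors (ENSMUSG00000029178, chromosome 5, 64803388 to 64832901, plus strand), rose with the Krt12 share by less than Klf4. Klf3 levels were 182 and 179 CPM below 0.4, 211 and 229 CPM between, and 262 and 298 CPM in corneal cells. The lowest corneal library lay above both low libraries. The log2 fold change was -0.66 ± 0.086 (SE, 2 libraries; edgeR adjusted p = 3.8e-07). In library 1 the low and intermediate intervals overlapped.

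Klf13, a repressor of the Sin3-binding branch of the family (ENSMUSG00000052040, chromosome 7, 63886351 to 63938915, minus strand), fell with the Krt12 share. It had 57.9 and 57.0 CPM below 0.4, 49.9 and 31.0 CPM at intermediate shares and 18.5 and 25.1 CPM in corneal cells. Both low libraries lay above both corneal libraries, while the intermediate interval overlapped that of the low class in library 1 and that of corneal cells in library 2. The log2 fold change was 1.38 ± 0.16 (SE, 2 libraries; edgeR adjusted p = 3.9e-06).

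For the other 4 members the libraries differed as much as the classes. Klf6, first described as a factor bound to core promoter elements (ENSMUSG00000000078, chromosome 13, 5861482 to 5870394, plus strand), had 321 and 130 CPM below 0.4 against 279 and 149 CPM in corneal cells. Its log2 fold change was -0.02 ± 0.090 (SE; edgeR adjusted p = 0.921). Klf9, a glucocorticoid and thyroid hormone responsive repressor (ENSMUSG00000033863, chromosome 19, 23141226 to 23168134, plus strand), moved in opposite directions. It had 36.3 against 22.96 CPM in low and corneal cells of library 1, and 17.1 against 29.8 CPM in library 2 (log2 fold change -0.07 ± 0.40, SE; edgeR adjusted p = 0.932). Klf10, a TGF-beta inducible early gene (ENSMUSG00000037465, chromosome 15, 38291463 to 38300706, minus strand), had 32.4 and 24.2 CPM against 29.7 CPM in each corneal library. Klf2, known from endothelial and T cells (ENSMUSG00000055148, chromosome 8, 72319033 to 72321656, plus strand), had 8.04 and 4.57 CPM from 29 and 23 UMIs below 0.4, and 13.7 and 4.07 CPM from 190 and 47 UMIs in corneal cells. The adjusted p was 0.624 for Klf10 and 0.275 for Klf2.

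**Figure D1:**
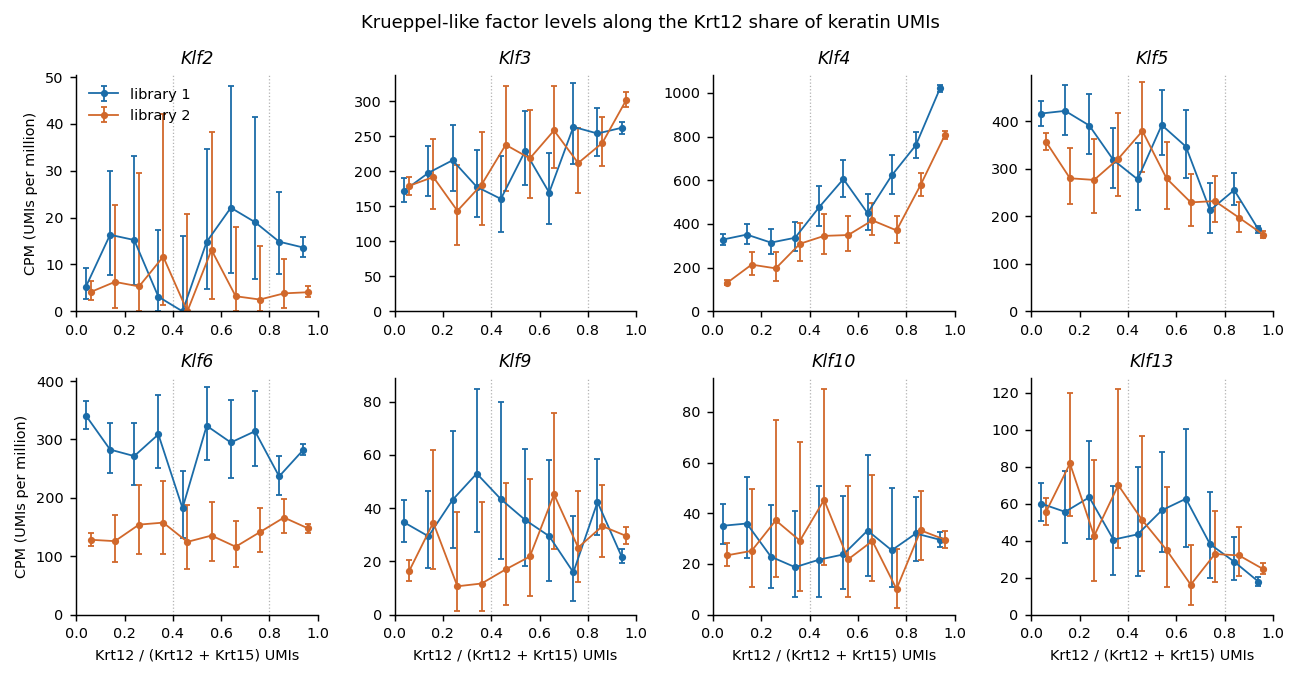
Levels of the 8 members (CPM, with exact 95% Poisson intervals) over 10 bins of the Krt12 share, by library, with dotted lines at 0.4 and 0.8. Klf4 climbs and Klf5 falls in both libraries, while the Klf6 points of library 1 lie above those of library 2 in every bin.

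The finer bins showed where the changes lay. In cells with a share up to 0.1, Klf4 had 328 and 132 CPM, and between 0.3 and 0.4 it had 337 and 309 CPM. From 0.7 to 0.8 it had 622 and 370 CPM, from 0.8 to 0.9 760 and 579 CPM, and above 0.9 1020 and 807 CPM. The libraries were thus farthest apart in relative terms at the low end. Klf5 went from 416 and 357 CPM in the first bin to 172 and 161 CPM in the last. Bins from 0.2 to 0.8 held 27 to 64 cells in a library, and their intervals were correspondingly wide.

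Depth, mitochondrial share and the other epithelial markers moved with these classes. Median UMIs per cell were 5002 and 5096 below 0.4 and 5784.5 and 6375 in corneal cells, and median mitochondrial shares were 3.47% and 4.41% against 2.49% and 3.15%. With cells under 10% mitochondrial UMIs alone the 4 members had log2 fold changes of -0.65 (Klf3), -2.03 (Klf4), 1.13 (Klf5) and 1.39 (Klf13). Cells were also split by their Fos UMIs after each was thinned at random to 2000 UMIs. Among cells with 0 Fos UMIs left after thinning the same 4 passed, beside 25.2% of genes, with values of -0.69, -1.92, 1.02 and 1.49 and edgeR adjusted p-values up to 0.00489. Among cells with 3 or more, where 22 low-share cells of library 2 entered, Klf5 passed at 1.17, beside 8.41% of genes. There Klf13 was at 1.18, Klf4 at -1.41 and Klf3 at -0.43, in the same directions as before, with edgeR adjusted p-values of 0.0566, 0.0866 and 0.0909. The part of depth and of the other markers in these values was not tested.

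Cells were then counted by whether they held Klf4, Klf5 or both, after each was thinned to 2000 UMIs, which kept 642 of 663 and 882 of 959 cells below 0.4 and 2039 of 2304 and 1622 of 1821 corneal cells. Below 0.4, cells with Klf5 and no Klf4 made up 30.1% (26.5 to 33.8%, exact 95% binomial interval) of library 1 and 39.7% (36.4 to 43.0%) of library 2. In corneal cells they made up 5.35% (4.41 to 6.41%) and 8.20% (6.91 to 9.64%). Klf5 without Klf4 was thus the less frequent state among corneal cells in both libraries. Cells with Klf4 and no Klf5 rose from 18.8% (15.9 to 22.1%) and 10.7% (8.70 to 12.9%) below 0.4 to 56.4% (54.3 to 58.6%) and 54.6% (52.1 to 57.0%) in corneal cells. Both genes were found in 25.2% and 10.8% of cells below 0.4 and in 24.7% and 19.0% of corneal cells. The product of the separate shares gives 24.4%, 10.8%, 24.3% and 20.0%, close to these values. Many cells that hold a gene are missed at 2000 UMIs, so this does not say whether the genes are held independently. Without thinning, Klf4 was found in 71.6% and 42.0% of low cells and 95.1% and 91.9% of corneal cells, and Klf5 in 82.1% and 75.4% against 56.9% and 56.0%. The ratio of Klf4 to Klf5 UMIs, which depends on how well each 3′ end is captured and is used only to follow its change, was 0.814 and 0.417 below 0.4, 1.77 and 1.42 between, and 5.62 and 4.86 in corneal cells.

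**Figure D2:**
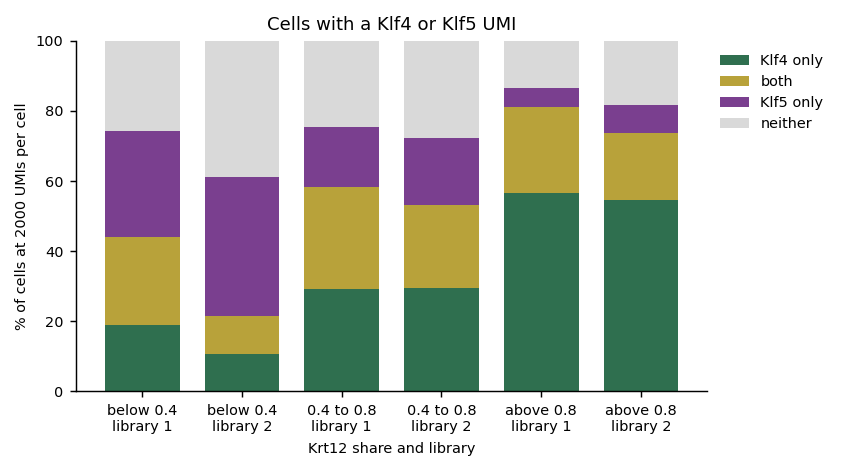
Stacked bars of the percentage of cells, thinned to 2000 UMIs, with a UMI of Klf4 only, of both genes, of Klf5 only or of neither, by Krt12 share class and library. Klf5-only cells shrink from 30.1% and 39.7% below a share of 0.4 to 5.35% and 8.20% above 0.8.

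The other genes of the pathway were read from lists. Of 9 corneal genes tied to Klf4 in earlier work, 7 were lower in the low class (Aqp5, Aldh3a1, Tkt, Dsp, Dsg1a, Krt5 and Pax6), and the adhesion gene Cdh1 was higher at 0.87 ± 0.098 (SE, log2). The water channel gene Aqp5 changed by -4.97 ± 0.38 and the desmosome gene Dsg1a by -2.92 ± 0.21. The list's median log2 fold change was -0.39, beside -0.0055 over all genes tested. DESeq2 called 8 of the list, with Krt14 and without Dsp. Several of these genes are also the corneal markers used to check the classes. Of 9 tested cofactor and turnover genes, the corepressor genes Ctbp1 (0.43 ± 0.10) and Hdac2 (0.32 ± 0.11) were higher, and the ubiquitin ligase gene Fbxw7 was lower (-0.94 ± 0.13). That is 3 of 9, near the 32.5% of all genes called, and DESeq2 called Fbxw7 alone of the 3. Of 10 other Klf and Sp genes tested, Klf12 and Klf15 were higher and Sp6 lower, all 3 from few UMIs. That count is again near 32.5%. Lower in the low class were also 6 of 16 immediate early genes (Fosb, Jun, Junb, Jund, Ier2 and Zfp36, with a list median of -0.46). So were 2 of 6 glucocorticoid responsive genes (Tsc22d3 and Per1, with a list median of -0.66). Over all genes tested, 15.6% were called lower and 16.9% higher. DESeq2 called Tsc22d3 and not Per1. In the comparison by Gpha2 described next, Tsc22d3 was higher in the Gpha2 cells (1.27 ± 0.44, SE, edgeR adjusted p = 0.0255). Sgk1, of the same glucocorticoid list, was lower there (-0.61 ± 0.17, SE, edgeR adjusted p = 0.00401), and DESeq2 called none of this list.

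Within the low side, cells were split by Gpha2, a limbal stem cell marker, and by the mucosal keratins Krt4 and Krt13. Klf4, Klf3 and Klf5 were lower in cells with at least 2 Gpha2 UMIs (404 and 694 cells) than in cells with at most 1 Gpha2 UMI and at least 5 UMIs of Krt4 and Krt13 (66 and 109 cells). That is 3 of the 7 members tested, all lower, beside 9.99% of 8888 genes called lower, 8.47% called higher and 18.5% in either direction. The limbal list (Krt15, Gpha2, Krt14, Ifitm3 and Cd63) had 16471 and 19370 CPM in the Gpha2 cells. It had more, 22084 and 26177 CPM, in the mucosal keratin cells. The conjunctival list, which holds Krt4 and Krt13, had 636 and 1300 against 4166 and 6798 CPM. The Gpha2 class had no upper limit on Krt4 and Krt13. The classes are therefore not taken as limbal against conjunctival cells.

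Klf4 had 282 and 124 CPM in the Gpha2 cells and 483 and 282 CPM in the mucosal keratin cells. Each library was lower in its Gpha2 cells, although the groups met across libraries at 282 CPM. The log2 fold change was -1.01 ± 0.11 (SE, 2 libraries; edgeR adjusted p = 2.08e-17). Klf3 had 165 and 169 CPM against 284 and 238 CPM, with no overlap between the groups (-0.67 ± 0.12, SE; edgeR adjusted p = 9.19e-07). Klf5 had 395 and 332 CPM against 443 and 404 CPM, a smaller difference (-0.28 ± 0.10, SE; edgeR adjusted p = 0.0437). Without TMM scaling the adjusted p of Klf5 was 0.121, and over 7 alternatives it ran from 0.0366 to 0.842. Krt12 and depth moved with this split. Krt12 had 527 and 404 CPM in the Gpha2 cells and 1305 and 508 CPM in the mucosal keratin cells, and median depth was 5019 and 5195 against 6423.5 and 5759 UMIs, where the classes rest on raw UMI limits. Their part in the Klf values was not tested. In each library both kinds of low cells held more Klf5 and less Klf4 than the corneal cells.

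Klf6 had 305 and 123 CPM against 341 and 141 CPM, and Klf13 had 59.3 and 53.5 CPM against 51.0 and 71.2 CPM. Neither passed, with edgeR adjusted p-values of 0.233 and 0.598. Klf9 and Klf10 had log2 fold changes of 0.52 ± 0.34 and 0.44 ± 0.32 (SE) and did not pass either. Klf2 was left out by the filter on low counts, with 21 and 20 UMIs in the Gpha2 cells and 1 UMI in each library of the mucosal keratin cells. This fit has 1 residual degree of freedom, against 2 in the other 3 comparisons. Of the 9 corneal genes tied to Klf4, Aqp5, Dsp, Dsg1a, Cdh1 and Krt5 were lower in the Gpha2 cells and Tkt was higher (list median -0.39, beside 0.027 over all genes). Of this list, only Aqp5, Dsp and Krt5 were also called by DESeq2. DESeq2 called Klf4 alone among the members (adjusted p = 0.000129) and gave Klf3 an adjusted p of 0.0819, and without the library block none of the 3 passed, with adjusted p-values of 0.0532 for Klf3, 0.478 for Klf4 and 0.452 for Klf5.

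**Figure D3:**
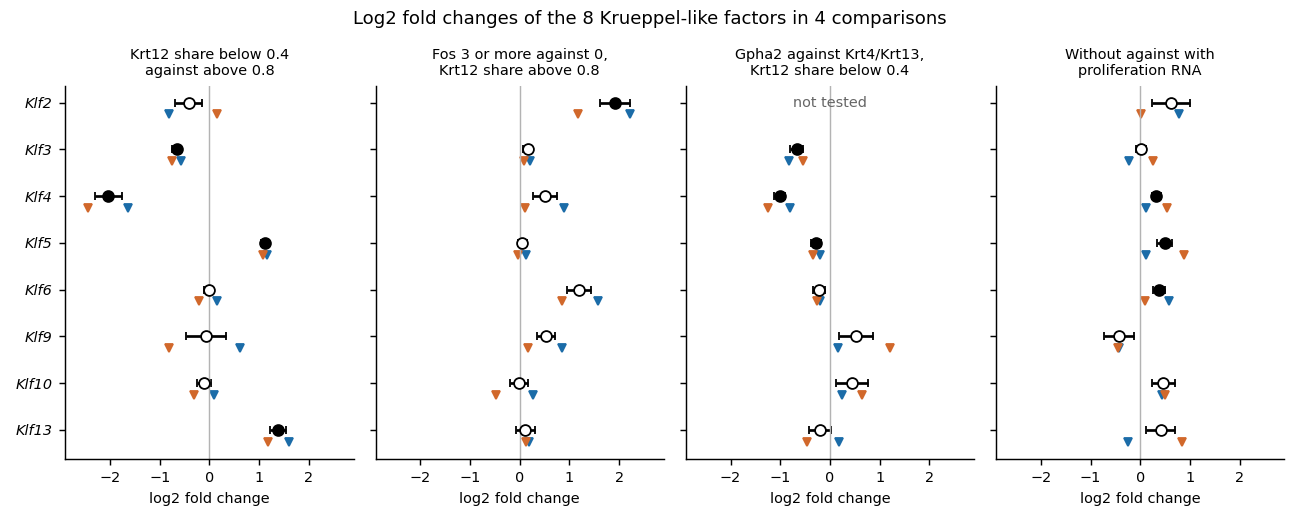
Log2 fold changes of the 8 members in the 4 comparisons, with black circles and bars for the edgeR estimate ± SE (filled where the adjusted p is under 0.05) and triangles for library 1 (blue) and library 2 (orange) alone. Klf4, Klf5, Klf3 and Klf13 stand out by Krt12 share and Klf2 by Fos class.

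Within corneal cells, each member was related to Fos, an immediate early gene whose RNA rises within minutes of a stimulus. To keep depth out of the classes, Fos was counted after thinning to 2000 UMIs, as 0, 1 to 2, or 3 or more UMIs. High Fos was found in 971 of 2039 corneal cells of library 1 and in 217 of 1622 of library 2, and no Fos after thinning in 458 and 826. The no-Fos class is thus one of low Fos, since before thinning 45.4% and 51.3% of its cells held a Fos UMI. Klf2 was higher in high-Fos cells, and Klf6 was higher in both libraries without passing the main test. In this comparison 1 of 8 members passed, beside 0.758% of 10817 genes (0.453% higher and 0.305% lower). An unadjusted edgeR p under 0.05 was found for 3 of 8 (Klf2, Klf6 and Klf9), beside 1138 of the 10817 genes.

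Klf2 had 4.73, 9.46 and 21.5 CPM from no to high Fos in library 1, from 14, 40 and 135 UMIs. In library 2 it had 2.96, 4.72 and 6.76 CPM, from 16, 20 and 11 UMIs. The order was the same in both, but the intervals of library 2 overlapped from end to end. The log2 fold change was 1.91 ± 0.30 (SE, 2 libraries; edgeR adjusted p = 0.000516), at 2.22 in library 1 alone and 1.16 in library 2 alone, so the estimate rests mainly on library 1. In a fit over 16 sums of all keratin classes it was 1.93 ± 0.33 and passed, beside 0.276% of genes. DESeq2 gave it an adjusted p of 0.251, and over 9 alternatives the range was 1.37e-07 to 1.0, with 7 under the threshold.

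Klf6 had 122, 263 and 345 CPM across the Fos classes of library 1 and 121, 156 and 216 CPM across those of library 2. The 3 classes were ordered alike, the intervals did not overlap within a library, and both high-Fos values lay above both no-Fos values. Its log2 fold change was 1.20 ± 0.24 (SE, 2 libraries), at 1.58 and 0.84 in the single libraries. The edgeR adjusted p was 0.248, whereas DESeq2 gave 8.24e-07 and edgeR without the filter on low counts gave 4.2e-18. A call for Klf6 thus depends on the tool and the filter, while its direction held under the 9 alternatives run.

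Klf4 had 679, 875 and 1205 CPM across the Fos classes of library 1 and 767, 803 and 823 CPM across those of library 2. The step was 0.90 in library 1 and 0.10 in library 2 on the log2 scale, and the joint estimate of 0.51 ± 0.24 (SE) had an edgeR adjusted p of 0.621. Klf9 had 15.9, 19.9 and 27.5 CPM in library 1 and 28.1, 31.9 and 31.4 CPM in library 2 (0.53 ± 0.18, SE; edgeR adjusted p = 0.234). Klf3 (0.16), Klf5 (0.05), Klf10 (-0.01) and Klf13 (0.12) had small log2 fold changes, none past the threshold. Among these 4 the interval of Klf5 stayed between 142 and 194 CPM in every Fos class and library.

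**Figure D4:**
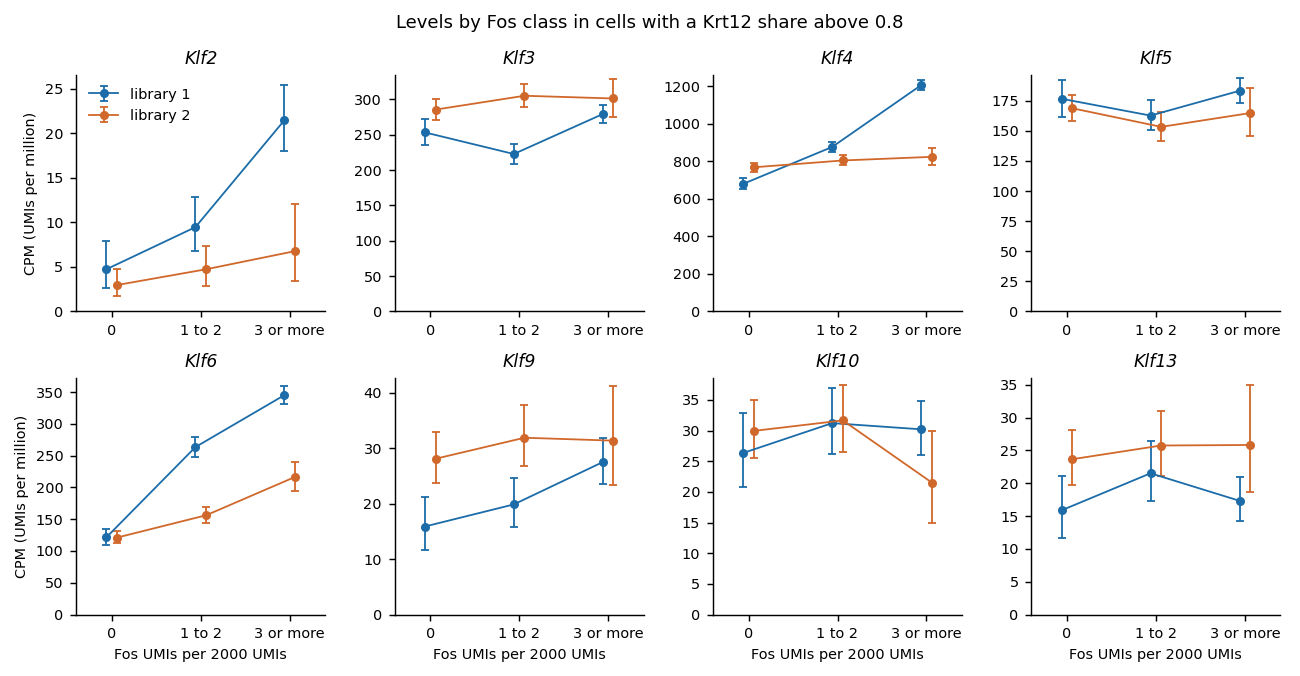
Levels of the 8 members in corneal cells by Fos class (CPM, with exact 95% Poisson intervals) and library. Klf6 climbs in both libraries from a shared start at 122 and 121 CPM, and Klf4 climbs mostly in library 1.

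The distance between the libraries in Klf6 and Klf4 was not the same in every Fos class. Over all kept cells Klf6 had 288 CPM (281 to 296, exact 95% Poisson interval) in library 1 and 142 CPM (137 to 148) in library 2, and Klf4 had 842 CPM (829 to 855) and 580 CPM (569 to 591). Fos itself had 1244 and 427 CPM. In the no-Fos class of corneal cells, Fos had 250 and 208 CPM. Klf6 stood there at 122 and 121 CPM, and Klf4 was the lower in library 1, at 679 against 767 CPM. In the other Fos classes of corneal cells, given above, both Klf6 and Klf4 were higher in library 1. In the no-Fos class below a share of 0.4, Klf6 had 259 and 125 CPM and Klf4 had 274 and 139 CPM. The libraries were not matched on Fos there, with 145 CPM in library 1 and 64.9 CPM in library 2. With 1 sample a library, none of these distances has a test, and the part of Fos in them was not tested. The remaining members except Klf2 lay closer together over all cells. They had 242 and 259 CPM for Klf3, 231 and 222 for Klf5, 26.2 and 26.1 for Klf9, 30.3 and 28.0 for Klf10, and 28.1 and 34.9 for Klf13. The intervals of the libraries did not overlap for Klf3 and Klf13. Klf2 had 12.7 and 4.27 CPM. Levels over all cells also rest on unlike mixes of classes, with 663 of 3187 kept cells below 0.4 in library 1 and 959 of 3001 in library 2.

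In cells below 0.4 the Fos contrast was estimated from the same fit over 16 sums. None of the 8 members passed there in edgeR, beside 0.0887% of genes, and 2 of them (Klf3 at 0.42 ± 0.16 and Klf9 at 1.51 ± 0.58, SE) had unadjusted p-values under 0.05. Klf6 was at 0.75 ± 0.35 and Klf4 at 0.97 ± 0.42. The contrast below 0.4 minus that in corneal cells was not called for any member, beside 0.00985% of genes, and Klf2 was the 1 member with an unadjusted p under 0.05. For Klf2 that difference was -2.17 ± 0.86 (SE; edgeR adjusted p = 0.903, unadjusted p = 0.0162), from 3 UMIs and 0 UMIs in the high-Fos cells below 0.4. DESeq2 was not run for these contrasts, and the share of all genes at an unadjusted p under 0.05 was not counted.

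Across single corneal cells thinned alike, Spearman's rho with Fos was 0.319 in library 1 and 0.062 in library 2 for Klf4, and 0.256 and 0.093 for Klf6. Klf2 had 0.0875 and -0.0058, and Klf3 had 0.0868 and 0.0665. These describe 2039 and 1622 cells of 1 library each, share that library's depth and free RNA, and in sparse counts carry no more weight than the sums.

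Of 16 immediate early genes tested in the same comparison, Jund (1.20 ± 0.099), Egr1 (1.64 ± 0.15) and Nr4a1 (1.84 ± 0.34) passed, all higher in high-Fos cells, and the list's median log2 fold change was 1.30 beside 0.0052 over all genes. Of 6 glucocorticoid responsive genes, the clock gene Per1 (1.05 ± 0.22) and the kinase gene Sgk1 (0.52 ± 0.11) passed. DESeq2 called neither of these, nor Nr4a1, and called 7 immediate early genes (Btg2, Atf3, Jun, Fosb, Jund, Dusp1 and Egr1). None of the 5 TGF-beta early genes or the 9 corneal genes tied to Klf4 passed in edgeR or in DESeq2. Nor did any of the 9 cofactors or the 8 other Klf and Sp genes. In this order, 1, 6, 2 and 2 of them had an unadjusted edgeR p under 0.05, beside 1138 of 10817 genes. Limbal markers moved with the Fos classes, at 8514 CPM without and 6368 CPM with high Fos in library 1 and 4591 and 3582 CPM in library 2, mostly Krt14. Their part in the Klf values was not tested.

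Since the sort was on a cyclin B1 reporter, corneal cells were also compared by proliferation RNA (Mki67, Top2a, Ccnb1, Cdk1 and Ube2c). Cells with none of these UMIs after thinning numbered 151 and 115, and cells with 5 or more numbered 1114 and 938. Klf4, Klf5 and Klf6 were higher in the cells without, by less than 0.5 on the log2 scale. That is 3 of 8 members, all higher, beside 6.64% of 11001 genes called higher, 5.48% called lower and 12.1% in either direction.

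Klf4 had 1022 and 1024 CPM without proliferation RNA and 998 and 763 CPM with it. Klf5 had 182 and 262 CPM against 178 and 154 CPM, and Klf6 had 369 and 158 CPM against 260 and 160 CPM. Klf4 and Klf5 thus differed mainly in library 2 and Klf6 in library 1. The log2 fold changes were 0.32 ± 0.095, 0.49 ± 0.14 and 0.38 ± 0.11 (SE, 2 libraries), with edgeR adjusted p-values of 0.0196, 0.035 and 0.0214. In the single libraries they were 0.11 and 0.54 for Klf4, 0.11 and 0.87 for Klf5, and 0.58 and 0.09 for Klf6. Without TMM scaling Klf5 alone passed, and DESeq2 called none of the 8, with 0.164 the lowest adjusted p among these 3. That scaling moved the split over all genes from 731 higher and 603 lower to 615 and 918. Klf2, Klf3, Klf9, Klf10 and Klf13 did not pass.

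The conjunctival list moved with proliferation RNA, at 900 and 1095 CPM in the cells without and 58.6 and 56.8 CPM in the cells with it. Most of it was Krt13 (563 and 356 UMIs) and Muc4 (91 and 271 UMIs) in the cells without. Median depth moved as well, at 5375 and 5203 UMIs in the cells without and 6101.5 and 6734.5 UMIs in the cells with it. The part of depth and of this list in the Klf values was not tested. Among the 9 corneal genes tied to Klf4, 5 were higher in the cells without (Aqp5, Dsp, Dsg1a, Cdh1 and Krt5), beside 6.64% of all genes. DESeq2 called 3 of the list (Aqp5, Krt5 and Dsg1a). The median log2 fold change was 0.35 over the list and -0.0004 over all genes.

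The members also grouped by their whole pattern over 17 sums of Krt12 share class, Fos class and library. Levels were taken as log2(CPM + 1) and centred in each library, and the sums of 1 library share its depth. Klf4 and Klf3 had a Pearson r of 0.878 and Klf5 and Klf13 of 0.879, while Klf4 had -0.821 with Klf5 and -0.844 with Klf13. They are the same pairs that the Krt12 contrast gave, and its classes are among the sums. Klf6 was nearest to Klf9, at 0.724, and the value of Klf10 farthest from 0 was -0.217, with Klf2.

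Among 5811 genes of at least 20 CPM, the pattern most like that of Klf4 was Ctnnbip1 (r = 0.955), followed by Dapl1 and Hspb1. For Klf5 it was Slc1a1 (0.977), then Mfge8 and Hspb8, for Klf3 Cyth3 (0.939), then Dtnb and Wdtc1, and for Klf13 Rpl10 (0.933), then H2afj and Atp5g1. The nearest to Klf6 were Dusp1 (0.934), Egr1 and Zfp36l1, of which Dusp1 and Egr1 belong to the immediate early list. Klf2 (Stub1, 0.886, then Smc6 and Rictor), Klf9 (Dek, 0.832, then Cdkn2aip and Tsc22d2) and Klf10 (Ncstn, 0.849, then Frrs1 and Marc2) had lower values, and few UMIs in several sums. For every member these are the highest of 5811 values over 17 sums. How high the best value reaches by such a search alone was not tested.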

How the data were processed

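RNA of sorted corneal epithelial cells was measured with 10x Genomics 3′ v3 libraries, per the labels' protocols. The authors deposited 1 matrix of raw UMI counts for both libraries, and the submitters' processing notes name Cell Ranger 3.1.0, Seurat 5.0.0 and GRCm38/mm10, without their roles. Gene models were GENCODE M21 and promoters RefSeq. Members and lists were chosen with earlier results of these data known. The members are named in every comparison, list genes only past the threshold (the TGF-beta list's count by Krt12 share is not reported here), and for each member the 3 genes nearest in pattern. CPM divides a sum of UMIs by all UMIs of its cells. Counts per library and class were tested with edgeR 4.0.16 (TMM, filterByExpr, robust quasi-likelihood, library block, 1 to 2 residual degrees of freedom and 7 in the fit over 16 sums), with Benjamini-Hochberg adjustment over all genes tested. Alternatives included DESeq2 1.42.0. Doublets were kept, and an alternative dropped the top 3% of Scrublet scores per library. The fits were also run on simulated data with a log2 change of 1 in 200 genes. They recovered 77.5% by Krt12 share (11058 genes), 73.0% by Fos (10789), 53.0% by Gpha2 (8921) and 45.5% by proliferation RNA (10984). The changed genes were drawn from genes with many UMIs, and every gene was given the same spread. The rates need not hold for members with few UMIs, such as Klf2, or with more spread between libraries.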

Additional observations from a re-analysis of the deposited data

How the results depend on the processing

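The 8 members' log2 fold changes in 4 comparisons were recomputed under each alternative. Of these values, 291 stayed on their side of the threshold or within their error, 22 lost the call, 3 gained it and 3 moved by more than their error. For a single library the error came from the distance between the 2 libraries themselves, so staying within it was nearly fixed in advance. Such values were 16 (Krt12 share), 15 (Fos), 14 (Gpha2) and 14 (proliferation RNA) of the 291. No called value changed sign, whereas Klf2, Klf6, Klf9 and Klf10, not called by Krt12 share, had opposite signs in the single libraries. By Krt12 share, 1 member was called lower without the library block, and in cells with high Fos, a contrast chosen after seeing the data, 1 was called higher and 0 lower. By Fos, 2 were called without the filter on low counts and 0 without the block (225 genes at an unadjusted p under 0.05). By Gpha2, stricter limits called 1 higher (Klf10, 1.67, adjusted p = 0.0442), DESeq2 called 1 lower and the fit without the block 0. By proliferation RNA, 1 was called without TMM and 0 without the block or with DESeq2. Genes called of all tested fell from 3622 to 1551 (no block) and 1767 (DESeq2) by Krt12 share, from 1641 to 421 and 342 by Gpha2, and from 1334 to 331 and 696 by proliferation RNA. By Fos 82 became 198 without the filter, 0 without the block, 27 with DESeq2 and 16 with 0 against 1 or more Fos UMIs. A single library gives values with no test. The cause of these changes was not tested. Depth limits Klf2 most, with 76 UMIs in library 2.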

Other observations

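Of the 9 other Klf genes in the table, Klf7, Klf16 and Klf11 were the ones with more than a trace of RNA. Klf7 had 29.2 CPM in library 1 and 23.8 CPM in library 2, Klf16 had 10.97 and 9.95 CPM, and Klf11, a TGF-beta inducible relative of Klf10, had 9.59 and 9.78 CPM. Klf12 and Klf15 reached at most 1.18 CPM, Klf1, the erythroid factor, had 6 and 3 UMIs, Klf8 and Klf17 had 1 UMI each in all, and Klf14 had 0 UMIs among 6188 cells. Of the related Sp genes, Sp1 had 64.9 and 71.4 CPM and Sp3 had 70.2 and 84.7 CPM, while Sp7, Sp8 and Sp9 had none. Sp1 was the one gene of this list called by proliferation RNA, lower in corneal cells without it (log2 fold change -0.74 ± 0.18, SE; edgeR adjusted p = 0.0047).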
